A study of Mus musculus with 32 samples.

Results

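The 8 genes named here mark or control the oligodendrocyte lineage, the cells that make myelin in the brain: Nkx2-2, Olig1, Olig2, Sox10, Pdgfra, Cspg4, Gpr17 and Hes5. Their probes were found by gene symbol in the deposited probe profiles of an Illumina MouseRef-8 V2 bead array. Of the 8 genes, 7 had a probe under that symbol, which gave 9 of the 25697 probes, and Sox10 was not analysed here. Nkx2-2 and Hes5 had 2 probes each. Probes that rose above background (detection p below 0.01) on 4 or more of the 32 arrays were tested. These were 8 of the 9 probes, from 6 genes, among 12758 probes in all. The Olig2 probe was detected on 2 arrays and is described by its values only. Nkx2-2 probe 2 reached 4 arrays through the sham striatum, where it was highest, so its place among the tested probes is no support for its difference from sham in striatum or between the sham regions. It is left out of the counts over 7 probes below, while counts over 8 probes include it.

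RNA came from the right cortex and right striatum, the area of the infarct, of C57/Bl6 mice labelled Gpx1-/- and aged 8 to 10 weeks, so every group, sham included, was labelled as lacking Gpx1, whose product detoxifies hydrogen peroxide. The growth protocol, unlike the genotype labels, speaks of male wild-type mice. The injured groups had a suture in the middle cerebral artery for 2 h, which models an ischaemic stroke, followed by 2, 8 or 24 h of reperfusion. Sham mice had anaesthesia and a neck incision, and the suture was not inserted. Each of the 8 groups of region and condition held 4 arrays. The labels number these replicates without saying that they came from separate animals, so p-values measure only the spread between these arrays, which may be technical. Gpx1 itself, read by 1 probe, was detected on 32 of 32 arrays at a log2 signal of 8.78 to 10.45, and the part of the gene that this probe reads, relative to the deletion, is not known from the files.

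Oligodendrocyte precursor cells carry the growth factor receptor encoded by Pdgfra and the NG2 proteoglycan encoded by Cspg4. They divide and move through the adult brain, and differentiate under the transcription factors Olig1, Olig2, Sox10 and Nkx2-2. Gpr17 is a membrane receptor that appears in cells which have just committed to differentiate and is lost again as they mature. Hes5 is a transcriptional repressor switched on by the Notch receptor, which holds precursors, and also astrocytes and neural stem cells, in an undifferentiated state. Several of these genes are not unique to the lineage: Pdgfra is also found in fibroblasts of vessels and meninges, and Cspg4 in pericytes, which wrap capillaries. In whole tissue, fewer cells of a type and less RNA per cell cannot be told apart.

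Per array, 10701 to 11935 probes were detected (41.6% to 46.4%), and the median raw signal was 60.1 to 92.4. Cortex 24 h replicate 1 and cortex 8 h replicate 4 stood apart from their groups. On the second principal component, which parted sham from reperfusion arrays, they lay at -4.08 and -0.17. The other arrays of their groups lay at 20.6 to 41.9 and 14.2 to 17.6. The 2 arrays were thus shifted toward the sham cortex arrays (-22.01 to -16.31), but lay within the range of the 2 h cortex arrays (-6.99 to 2.06). Results in cortex at 8 and 24 h are therefore also given without both. The array codes place each replicate number of a region on 1 slide, with 1 array of each condition, so differences could also be taken within a slide. The place of an array on its slide was the same for all arrays of a condition, and place and condition cannot be told apart.

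The striatum samples carried hypothalamic transcripts in every group, from a list chosen after values were seen. Pmch, a neuropeptide precursor of the lateral hypothalamus, read a log2 signal of 11.49 to 12.42 on the 16 striatum arrays and 4.63 to 6.03 on 15 cortex arrays. It read 9.71 on cortex 8 h replicate 2, which goes against that array's label, as do its Hcrt, Avp and Oxt signals of 7.78, 9.49 and 8.67. Nkx2-2 probe 1 read 6.15 on this array, and 6.21, 5.51 and 5.27 on the others of its group. Oxt, the oxytocin precursor, also read 8.00 on cortex 2 h replicate 1, against 4.89 to 5.03 on the other 2 h cortex arrays. Of 8 measured neuropeptides of this list, 8 were higher in sham striatum than in sham cortex, where 17.3% of all tested probes were. Most of them passed the filter through striatum arrays and the list was chosen after seeing values, so this count is a description and no support. Pomc, also on the list, did not pass the filter. Within striatum 2, 1 and 1 rose and none fell against sham at 2, 8 and 24 h, and in cortex none rose and 0, 0 and 1 fell. Their part in the signals of the members was not tested.

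Stretches of promoter sequence are shown for Nkx2-2 and Hes5, the 2 genes with a probe called lower in all 6 comparisons with sham. Motifs marked there are those of factors of the pathways described above or of hypoxia. A part of these factors in the changes was not tested. The stretches come from RefSeq on build GRCm38.p6, and positions are counted in bases before the start that the promoter table uses. In the first, capitals mark the 3 E-boxes (CANNTG, the motif of factors such as Olig1 and Olig2). The E-box nearest the start, 173 bases before it, also holds ACGTG, the core motif of hypoxia-inducible factors, on each strand in an overlapping pair. In the Hes5 sequences, capitals mark TGGGAA or its reverse complement, the motif of RBPJ, the DNA-binding partner of Notch.
Nkx2-2, chr2:147186533-147186652, minus strand: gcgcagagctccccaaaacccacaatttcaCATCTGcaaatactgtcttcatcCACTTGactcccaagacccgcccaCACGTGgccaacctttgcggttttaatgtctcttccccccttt
Hes5, 226 bases before the start, chr4:154960685-154960714, plus strand: agggcgagcgcgTTCCCAcagcccggacat
Hes5, 82 bases before the start, chr4:154960829-154960858, plus strand: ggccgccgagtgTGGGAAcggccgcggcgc

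These motifs were searched on both strands in the 250 bases before the start: the E-box, the hypoxia motif, the RBPJ motif and the core motif of the GLI factors of hedgehog signalling (ACCACCC). Among 32841 promoters of that length, 66.2% held an E-box, 16.6% the hypoxia motif, 21.6% the RBPJ motif and 3.92% the GLI motif. Nkx2-2 had 3 E-boxes and 2 hypoxia motifs, Hes5 had 1 E-box and 2 RBPJ motifs, and Pdgfra had 1 E-box. The table held promoters of 5 of the 8 genes, namely Nkx2-2, Hes5, Pdgfra, Cspg4 and Olig2. Olig2 and Cspg4 had no match to any of the motifs. These matches describe letters and not binding. The stretches of both genes lie before the start that the promoter table uses but inside the annotated span of the gene, which is chr2:147176485-147195434 for Nkx2-2 and chr4:154960626-154962372 for Hes5.

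A call here is an adjusted p under 0.05 in limma. The counts that follow are over 7 probes, without Nkx2-2 probe 2. Hes5 enters these counts and the medians below with both of its probes. In cortex 3 of the 7 were called lower at 2 h, where 2.23% of all tested probes were, 4 of 7 at 8 h (9.92% of all) and 5 of 7 at 24 h (16.3%). In striatum 3 of 7 were called lower at 2 h (2.7% of all), 2 of 7 at 8 h (12.1%) and 6 of 7 at 24 h (16.3%). None of the 7 was called higher, where 2.05%, 8.84% and 14.6% of all tested probes were in cortex and 2.99%, 11% and 13.2% in striatum. At an unadjusted p under 0.05, in either direction, the counts were 6, 5 and 6 of 7 in cortex, where 21.2%, 32.8% and 41% of all tested probes passed, and 4, 3 and 6 of 7 in striatum (22.8%, 35.6% and 40.1%). With Nkx2-2 probe 2, which passed the filter through sham striatum, 4 of 8 were called lower in striatum at 2 h and 3 of 8 at 8 h. The 5 genes called lower at least once were Nkx2-2, Hes5, Gpr17, Pdgfra and Olig1, and Cspg4 was not. The median change of the 7 probes was -0.61, -0.71 and -0.71 in cortex and -0.41, -0.24 and -0.81 in striatum, against -0.01, -0.01 and -0.01, and -0.01, -0.01 and -0.04, over all tested probes. These values describe the members beside all probes, and no test of the group was made. Leaving out the 2 arrays that stand apart gave 5 of 7 in cortex at both 8 and 24 h.

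Nkx2-2 encodes a homeodomain transcription factor that acts as precursors begin to differentiate. Its 2 probes were designed to different RefSeq transcript variants, and they are described one after the other. Probe 1 read lower than sham in all 24 reperfusion arrays relative to the sham mean of their region, and in each of the 6 comparisons with sham its reperfusion arrays lay below every sham array.

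In cortex, Nkx2-2 probe 1 read a log2 signal of 7.49, 6.87, 7.12 and 7.03 in sham. At 2 h it read 6.24, 6.68, 5.45 and 5.58, at 8 h 6.21, 6.15, 5.51 and 5.27, and at 24 h 5.54, 5.53, 6.32 and 6.09. All sham arrays were above all reperfusion arrays, and 2 of 4 arrays at each time were not well above background, so the lower values rest in part on background. It fell in cortex by 1.14 ± 0.24 (SE, n = 4 per group) on the log2 scale at 2 h, to 45.3% of sham (limma, adjusted p = 0.00703). At 8 h the fall was to 39.4% of sham (adjusted p = 0.000519) and at 24 h to 41.8% (adjusted p = 0.000297). Differences within a slide were -1.67 to -0.20 at 2 h, -1.75 to -0.72 at 8 h and -1.95 to -0.80 at 24 h, all in 1 direction on 4 of 4 slides. Without the 2 arrays that stand apart, the changes at 8 and 24 h were -1.17 (adjusted p = 0.00141) and -1.15 (adjusted p = 0.000725). Those 2 arrays read as low as the rest of their groups for this probe, at 5.27 and 5.54.

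In striatum, Nkx2-2 probe 1 read 8.71, 8.58, 8.51 and 7.86 in sham. After 2 h of reperfusion the signals were 6.95, 6.76, 6.56 and 6.50, at 8 h 6.30, 6.76, 6.19 and 6.26, and at 24 h 7.30, 6.86, 7.05 and 7.04. The probe was detected on 16 of 16 striatum arrays, and every sham array lay above every reperfusion array, with the highest of these at 7.30 and the lowest sham array at 7.86. It fell in striatum by 1.72 ± 0.24 at 2 h, to 30.3% of sham (adjusted p = 0.000179), by 2.04 ± 0.24 at 8 h, to 24.3% (adjusted p = 6.77e-06), and by 1.35 ± 0.24 at 24 h, to 39.1% (adjusted p = 0.000147). The fall held on 4 of 4 slides at each time, with differences within a slide of -2.42 to -1.60 at 8 h. Each of the 6 calls for Nkx2-2 probe 1 passed under all 19 alternatives run for it.

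Between 8 and 24 h in striatum, Nkx2-2 probe 1 differed by 0.68 ± 0.24, with every 24 h array above every 8 h array, and this did not pass (adjusted p = 0.0811). With each region normalized and fitted alone it passed (0.67, adjusted p = 0.0238). In sham mice it was higher in striatum than in cortex by 1.28 ± 0.24 (adjusted p = 0.000106), with no overlap. The response differed between the regions by -0.58 at 2 h (95% interval -1.28 to 0.12), -0.69 at 8 h (-1.39 to 0.00) and -0.10 at 24 h (-0.79 to 0.60), and none of these passed.

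Nkx2-2 probe 2 was not detected on any of the 16 cortex arrays. In striatum it read 6.22, 5.89, 5.78 and 5.81 in sham, all detected. The 2 h arrays read 5.68, 5.37, 5.45 and 5.12, at 8 h 5.45, 5.65, 5.28 and 5.60, and at 24 h 5.78, 5.74, 5.28 and 5.50. Only replicate 1 was detected at 2 h and at 24 h, and none at 8 h. The sham arrays lay above the others at each time, by little at 24 h. It fell by 0.52 ± 0.15 at 2 h (adjusted p = 0.0419), and at 8 h it was at least 1.11-fold lower than sham (adjusted p = 0.0401). The change at 24 h was -0.35 (adjusted p = 0.0844). These calls passed under 8 of 18 alternatives at 2 h and 10 of 18 at 8 h. Leaving out sham replicate 1 alone gave -0.42 (adjusted p = 0.166) at 2 h and -0.33 (adjusted p = 0.16) at 8 h. In sham mice probe 2 was at least 1.11-fold higher in striatum than in cortex (adjusted p = 0.000404), and since sham striatum is the group that took it past the filter, this is a description and no support for a difference.

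**Figure D1:**
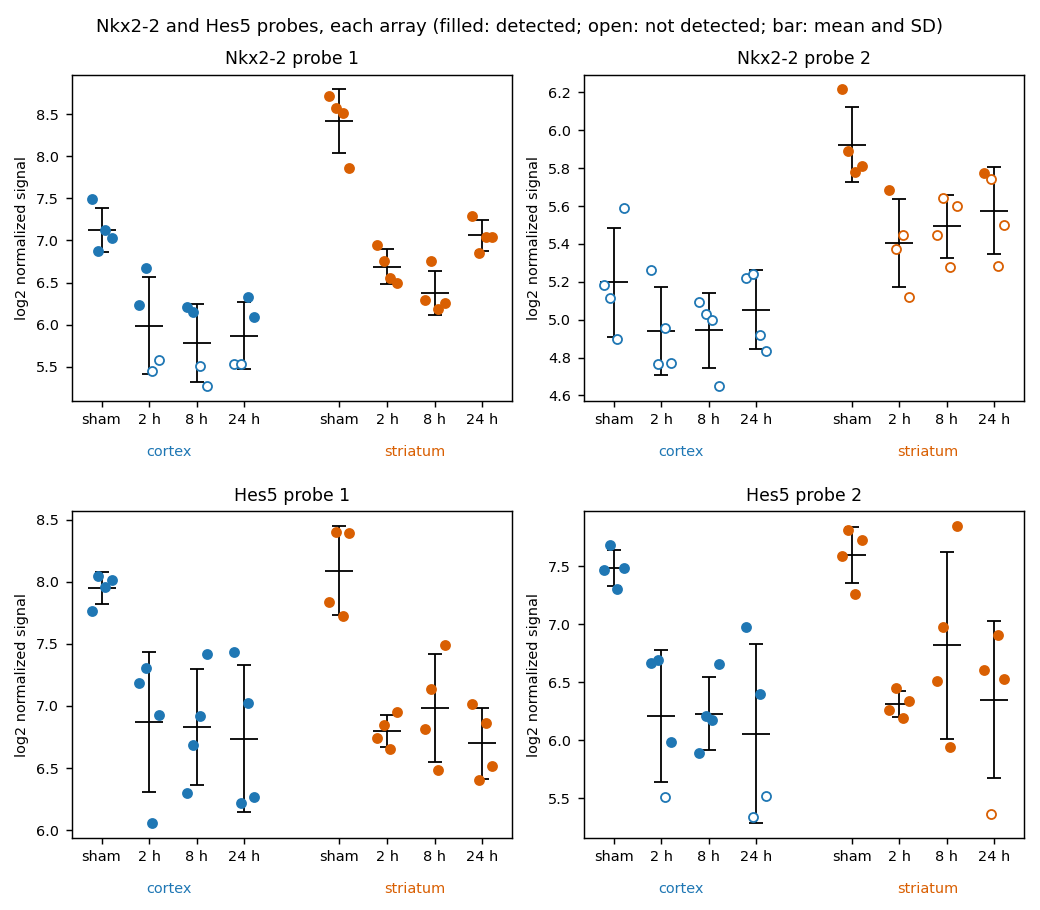
Log2 normalized signal (vertical axis) of both probes of Nkx2-2 and of Hes5 on each array, by region and condition, with filled points for detected and open points for undetected arrays, and bars for mean and SD of 4 arrays. For Nkx2-2 probe 1 the sham arrays lie between 6.87 and 7.49 in cortex and between 7.86 and 8.71 in striatum, above all reperfusion arrays of their region.

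Hes5 encodes a basic helix-loop-helix repressor that is a direct target of Notch. Both of its probes were designed to the same RefSeq transcript, and both read lower after reperfusion in the 2 regions, to between 37.2% and 58.2% of sham. Of the 12 comparisons of its probes with sham, 11 were called lower.

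In cortex, Hes5 probe 1 read 7.77, 8.05, 7.96 and 8.02 in sham. At 2 h it read 7.18, 7.31, 6.06 and 6.92, at 8 h 6.30, 6.69, 6.92 and 7.42, and at 24 h 7.43, 6.22, 7.02 and 6.27. No reperfusion array reached the lowest sham array, but the spread within reperfusion groups was wide, with replicate 4 at 8 h and replicate 1 at 24 h, the arrays that stand apart, closest to sham. It fell by 1.08 ± 0.27 at 2 h (adjusted p = 0.0192), by 1.12 ± 0.27 at 8 h (adjusted p = 0.00486) and by 1.21 ± 0.27 at 24 h (adjusted p = 0.00114). Without those 2 arrays the changes at 8 and 24 h were -1.31 (adjusted p = 0.000706) and -1.45 (adjusted p = 8.56e-05). The call at 2 h was lost without sham replicate 2 (-1.05, adjusted p = 0.0556), without 2 h replicate 3 (-0.81, adjusted p = 0.102) and with each region fitted alone (adjusted p = 0.0647).

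In striatum, Hes5 probe 1 read 7.84, 8.40, 7.72 and 8.39 in sham. After 2 h of reperfusion the signals were 6.74, 6.84, 6.65 and 6.95, at 8 h 6.81, 7.14, 6.48 and 7.49, and at 24 h 7.01, 6.40, 6.86 and 6.52. The groups did not overlap at any time. It fell by 1.29 ± 0.27 at 2 h, to 40.8% of sham (adjusted p = 0.00664), by 1.11 ± 0.27 at 8 h (adjusted p = 0.00378) and by 1.39 ± 0.27 at 24 h, to 38.2% (adjusted p = 0.00032). These 3 calls passed under all 19 alternatives run for each.

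Hes5 probe 2 was detected on 28 of 32 arrays. In cortex its sham arrays read 7.47, 7.69, 7.31 and 7.48. The 2 h arrays read 6.66, 6.69, 5.51 and 5.98, the 8 h arrays 5.89, 6.21, 6.17 and 6.65, and the 24 h arrays 6.98, 5.33, 6.40 and 5.52. It fell by 1.28 ± 0.34 at 2 h (adjusted p = 0.0323), by 1.26 ± 0.34 at 8 h (adjusted p = 0.0122) and by 1.43 ± 0.34 at 24 h (adjusted p = 0.00253). No reperfusion array reached the lowest sham array, but 2 h replicate 3 and 24 h replicates 2 and 4 were not detected, and 24 h replicate 1, which stands apart, was nearest to sham. Without the 2 arrays that stand apart the changes at 8 and 24 h were -1.40 (adjusted p = 0.00486) and -1.74 (adjusted p = 0.000308). The call at 2 h was the least firm, passing under 11 of 18 alternatives.

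In striatum, Hes5 probe 2 read 7.59, 7.82, 7.26 and 7.73 in sham. The 2 h arrays read 6.26, 6.45, 6.20 and 6.34, at 8 h 6.51, 6.98, 5.94 and 7.85, and at 24 h 6.60, 5.36, 6.91 and 6.53. Replicate 4 at 8 h read as high as the sham arrays, and the groups overlapped there alone. The probe fell by 1.29 ± 0.34 at 2 h (adjusted p = 0.0263) and by 1.25 ± 0.34 at 24 h (adjusted p = 0.00703). The change of -0.78 ± 0.34 at 8 h did not pass (adjusted p = 0.1), and without replicate 4 it was -1.12 (adjusted p = 0.0209). The call at 24 h was lost without 24 h replicate 2 (-0.92, adjusted p = 0.0525), and that at 2 h passed under 12 of 18 alternatives.

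Hes5 did not differ beyond the spread between the regions in sham mice, by 0.14 on probe 1 (95% interval -0.41 to 0.69) and 0.11 on probe 2 (-0.59 to 0.82). Across the 32 arrays its probes were related with Pearson's r of 0.918, and with 0.868 after the group means were taken out, so that they tracked each other within groups too. These correlations are descriptions over arrays that share groups and slides.

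**Figure D2:**
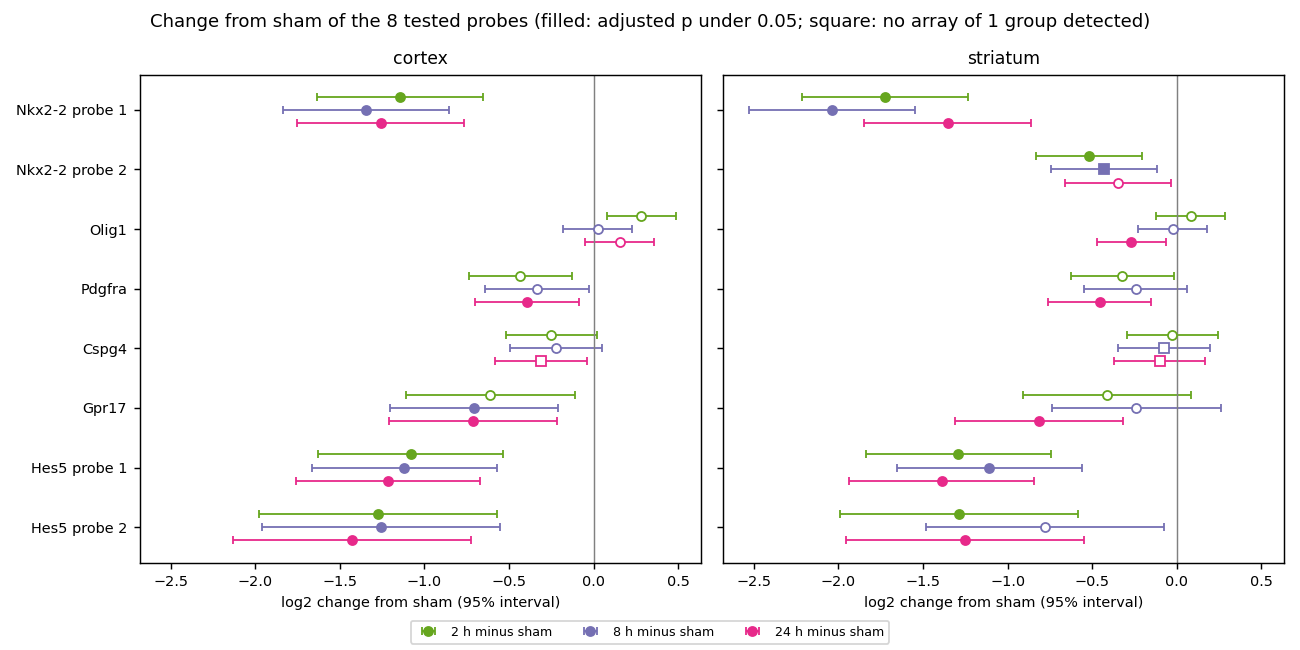
Log2 change from sham (horizontal axis) with its 95% interval for the 8 tested probes in cortex and striatum at 2, 8 and 24 h, with filled points where the adjusted p was under 0.05, squares where no array of 1 of the groups was detected, and no point where neither group was. Nkx2-2 probe 1 ranges from -2.04 to -1.14 and Hes5 probe 1 from -1.39 to -1.08, while Olig1 lies between -0.27 and 0.28.

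Gpr17, the receptor of newly committed cells, was detected on 32 of 32 arrays. In cortex it read 8.57, 8.56, 8.41 and 8.56 in sham. At 2 h it read 7.75, 8.17, 7.86 and 7.87, at 8 h 7.59, 7.84, 7.45 and 8.40, and at 24 h 8.47, 6.98, 8.27 and 7.51. The sham arrays were close together and the later groups spread widely, with 24 h replicate 1 inside the sham range. It fell by 0.71 ± 0.24 at 8 h, to 61.3% of sham (adjusted p = 0.0411), and by 0.71 ± 0.24 at 24 h (adjusted p = 0.0259). The change at 2 h was -0.61 ± 0.24, with no overlap, and did not pass (adjusted p = 0.138). The call at 8 h did not hold with the slide as a replicate block (adjusted p = 0.0508), and passed under 9 of 19 alternatives. Without the 2 arrays that stand apart the changes were -0.90 (adjusted p = 0.00579) and -0.94 (adjusted p = 0.002). Without 24 h replicate 2 the change at 24 h was -0.44 (adjusted p = 0.169).

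In striatum, Gpr17 read 8.59, 8.51, 8.79 and 9.04 in sham. After 2 h of reperfusion the signals were 8.34, 8.40, 8.21 and 8.34, at 8 h 8.29, 8.31, 8.43 and 8.94, and at 24 h 8.50, 7.32, 8.04 and 7.81. The 2 and 24 h arrays lay below sham, 24 h replicate 1 only just, and the 8 h arrays overlapped it. It fell at 24 h by 0.81 ± 0.24, to 56.9% of sham (adjusted p = 0.0122), which did not pass without 24 h replicate 2 (-0.61, adjusted p = 0.0754). The changes at 2 and 8 h were -0.41 and -0.24 (adjusted p = 0.321 and 0.512).

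Pdgfra, the receptor for the growth factor that drives precursor division, was also detected on 32 of 32 arrays. In cortex it read 9.11, 9.28, 9.17 and 9.16 in sham. The 2 h arrays read 8.80, 8.69, 8.85 and 8.64, at 8 h 8.30, 9.06, 8.75 and 9.27, and at 24 h 9.002, 8.68, 8.67 and 8.79. All arrays at 2 and 24 h lay below sham, while 8 h replicate 4 lay within it. It fell at 24 h by 0.39 ± 0.15, to 76.1% of sham (adjusted p = 0.045), a call lost with the slide as a replicate block (adjusted p = 0.0575) and without sham replicate 2 (-0.36, adjusted p = 0.11), and held under 9 of 19 alternatives. The change at 2 h was -0.43 ± 0.15 (adjusted p = 0.0853), and that at 8 h was -0.33 ± 0.15 (adjusted p = 0.115). Without the 2 arrays that stand apart it was -0.48 at 8 h (adjusted p = 0.0203) and -0.47 at 24 h (adjusted p = 0.014).

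In striatum, Pdgfra read 9.33, 9.06, 9.41 and 9.23 in sham. At 2 h it read 8.85, 9.16, 8.73 and 9.002, at 8 h 8.97, 9.01, 8.72 and 9.36, and at 24 h 9.004, 8.57, 8.82 and 8.82. Only the 24 h group lay wholly below sham. It fell at 24 h by 0.46 ± 0.15, to 72.9% of sham (adjusted p = 0.0213), and this passed under 16 of 19 alternatives, with sham replicates 1 and 3 and 24 h replicate 2 the arrays whose removal ended it (adjusted p = 0.0559, 0.0691 and 0.0892). The changes at 2 and 8 h were -0.32 and -0.24 (adjusted p = 0.194 and 0.247).

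Cspg4, the NG2 proteoglycan, gave a dim signal, detected on 9 of 32 arrays, of which 3 were sham cortex arrays. In cortex it read 5.80, 6.01, 6.27 and 5.77 in sham and 5.32 to 6.05 after reperfusion. In striatum it read 5.71, 5.52, 5.52 and 5.91 in sham and 5.43 to 5.82 after reperfusion. The groups overlapped in all 6 comparisons, and none passed. The changes were -0.25 and -0.22 in cortex at 2 and 8 h (adjusted p = 0.279 and 0.248) and -0.03 in striatum at 2 h (adjusted p = 0.936). At 24 h in cortex, where no array was detected, it was at least 1.08-fold lower than sham (adjusted p = 0.0743, and 0.0429 with the slide as a replicate block). At 8 and 24 h in striatum no array was detected either, and no fold is given (adjusted p = 0.714 and 0.598).

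Olig1 and Olig2 are neighbouring basic helix-loop-helix genes on chromosome 16 (GRCm38.p6, chr16:91269769-91271939 and chr16:91225550-91228677) that set and keep the fate of the lineage. Olig1 was detected on every array. In cortex it read 11.71, 11.70, 11.69 and 11.73 in sham. After 2 h of reperfusion the signals were 11.84, 12.15, 11.95 and 11.997, at 8 h 11.46, 11.86, 11.70 and 11.91, and at 24 h 11.99, 11.61, 11.88 and 11.95. All 2 h arrays were above all sham arrays, and this change of 0.28 ± 0.10 did not pass (adjusted p = 0.094), though with array weights Olig1 was called higher (0.27, adjusted p = 0.0149). The later changes in cortex were 0.03 and 0.15 (adjusted p = 0.89 and 0.253).

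In striatum, Olig1 read 12.56, 12.42, 12.70 and 12.51 in sham. The 2 h arrays read 12.65, 12.63, 12.64 and 12.60, at 8 h 12.36, 12.38, 12.68 and 12.67, and at 24 h 12.33, 12.19, 12.31 and 12.29. The 24 h arrays were close together and all below sham. It fell at 24 h by 0.27 ± 0.10, to 83% of sham (adjusted p = 0.0422), which held under 13 of 19 alternatives and not without sham replicate 3 (-0.22, adjusted p = 0.141). In sham mice Olig1 was higher in striatum than in cortex by 0.84 ± 0.10, or 1.79-fold (adjusted p = 1.1e-07), with no overlap. The response differed between the regions by -0.42 at 24 h (95% interval -0.71 to -0.13, adjusted p = 0.292), which did not pass.

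The Olig2 probe was not detected on any cortex array and on 1 striatum array each at 2 and 24 h, both replicate 4. It read 4.72 to 5.51 in cortex and 4.96 to 5.90 in striatum. Every group overlapped its neighbours in the order of the means, and these values lie at background, so nothing is said of the direction of Olig2.

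**Figure D3:**
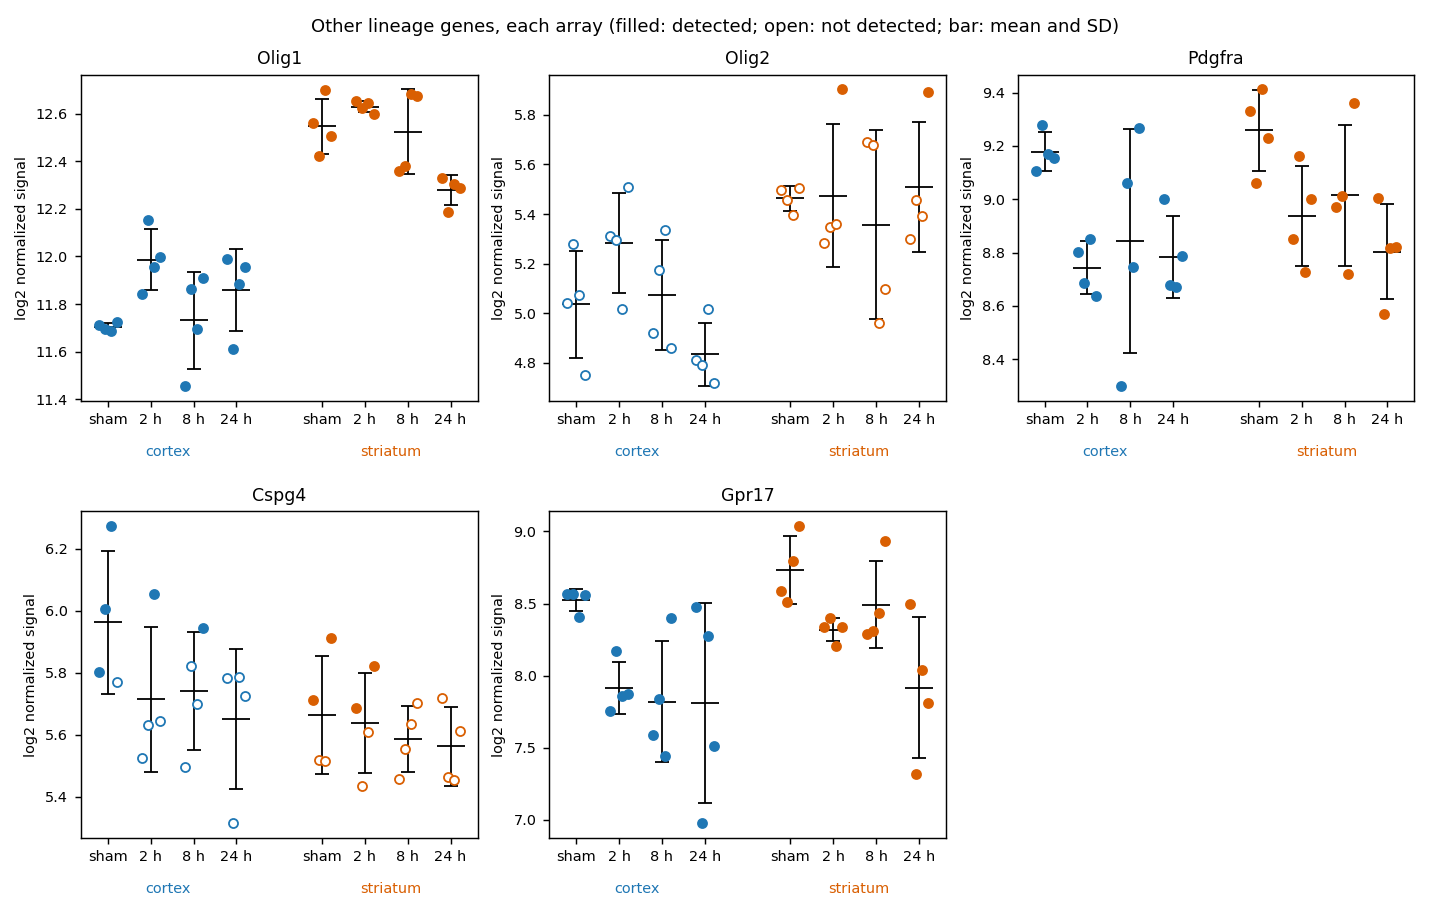
Log2 normalized signal (vertical axis) of the probes of Olig1, Olig2, Pdgfra, Cspg4 and Gpr17 on each array, by region and condition, with open points where the probe was not detected and bars for mean and SD of 4 arrays. Olig1 reads 11.46 to 12.15 in cortex and 12.19 to 12.70 in striatum, and Gpr17 at 24 h spans 6.98 to 8.47 in cortex.

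In sham mice 2 of the 7 probes, Nkx2-2 probe 1 and Olig1, were higher in striatum than in cortex, where 17.3% of all tested probes were, and none was lower, where 15.9% were. Between successive times limma called 0 of the 8 in either direction from 2 to 8 h in cortex (2.8% of all tested probes were called) and from 8 to 24 h (6.65%). It also called 0 of 8 from 2 to 8 h in striatum (1.47%) and from 8 to 24 h (7.12%). At an unadjusted p under 0.05 the counts were 1, 0, 0 and 3, where 19.1%, 23.3%, 16.5% and 22.5% of all tested probes passed. The response of the regions differed for 0 of 8 at 2, 8 and 24 h, where 0%, 0% and 0.00784% of all tested probes were called, and an unadjusted p under 0.05 was seen for 0, 0 and 1, against 6.39%, 7.62% and 9.05% of all. These comparisons share their sham or time groups with those above and are not independent of them.

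**Figure D4:**
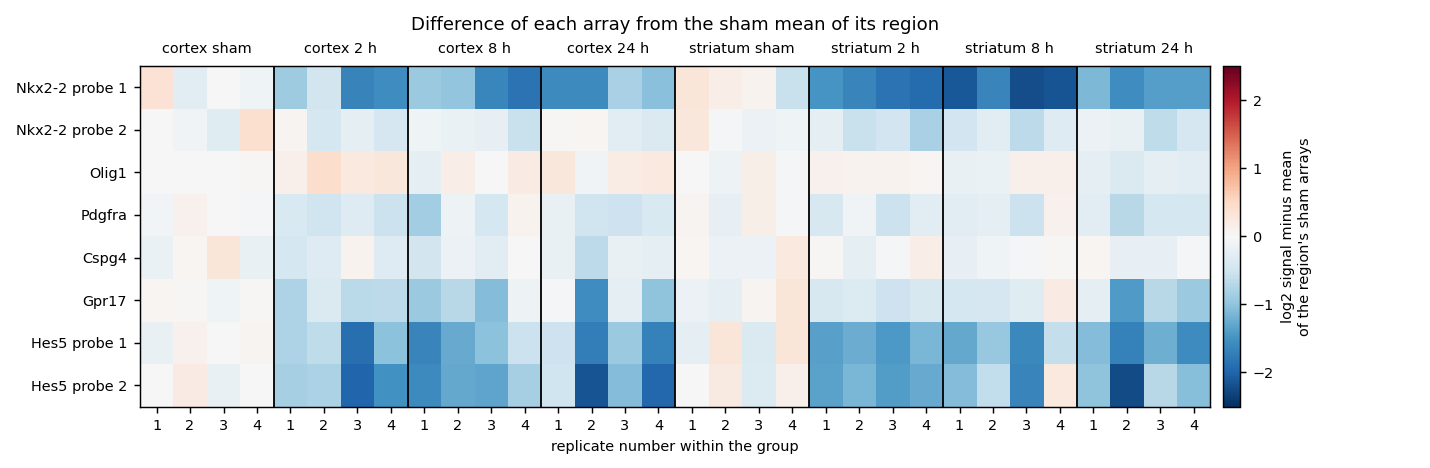
Difference of each array (columns, by replicate within group) from the mean of the sham arrays of its region, in log2 units by colour, for the 8 tested probes (rows). Cortex 24 h replicate 1 and cortex 8 h replicate 4 are paler than the rest of their groups for Gpr17, Pdgfra and Hes5 but not for Nkx2-2 probe 1, which lies at -1.59 and -1.85 there.

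The order of the group means differed between genes. For Nkx2-2 probe 1 sham striatum came first at 8.41 ± 0.38 (SD, n = 4), apart from sham cortex at 7.13 ± 0.26, and every later pair of neighbours overlapped, down to cortex at 8 h at 5.79 ± 0.47. For Olig1 the 4 striatum groups came first and the 4 cortex groups last, with a gap between striatum at 8 h (12.52 ± 0.18) and at 24 h (12.28 ± 0.06) and another to cortex at 2 h (11.99 ± 0.13). For Pdgfra, Gpr17, Cspg4 and Hes5 probe 2 all 7 pairs of neighbours overlapped. The bead-to-bead standard error of a signal within an array had a median of 0.07 for Nkx2-2 probe 1, 0.07 for Gpr17 and 0.09 for Hes5 probe 1 in log2 units. The SD between arrays of a group had a median of 0.32, 0.27 and 0.40, so that spread between arrays was the larger source of error.

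Within groups the members did not all vary together. Over the 32 arrays with group means taken out, Gpr17 was related to Hes5 probe 1 with r = 0.672, to Olig1 with r = 0.647 and to Pdgfra with r = 0.559. Nkx2-2 probe 1 was related to these with r = 0.017 (Gpr17), 0.016 (Hes5 probe 1), -0.009 (Olig1) and -0.199 (Pdgfra). The 2 arrays that stand apart take part in these values. Of 10507 probes detected on at least 24 arrays, those of the members and those with clone names were left out. Among the rest, those most like a member over the 32 arrays, by Pearson's r with group means kept in, were as follows. Immt (0.856), Sall2 (0.854) and Hps3 (0.852) were nearest to Nkx2-2 probe 1, and Macrod2 (0.878), Zbtb8b (0.823) and Etv1 (0.813) to Gpr17. Ccdc91 (0.855), Kat2a (0.853) and Bmp4 (0.841) were nearest to Hes5 probe 1, and Macrod2 (0.817), Nme7 (0.816) and Cuedc2 (0.811) to Hes5 probe 2. Maneal (0.805), Fam110b (0.79) and Zfp810 (0.771) were nearest to Pdgfra, and Abcb9 (0.763), Clstn1 (0.751) and Cnnm2 (0.743) to Olig1. These are values for arrays that share groups, regions and slides.

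Other genes of the lineage were read from lists that leave out the members, with 1 probe per gene. Of all tested probes, 2.05%, 8.84% and 14.6% were called higher and 2.23%, 9.92% and 16.3% lower in cortex at 2, 8 and 24 h. In striatum 2.99%, 11% and 13.2% were called higher and 2.7%, 12.1% and 16.3% lower. The counts of this and the following lists stand beside these shares, and no test of a list was made. Of 13 measured lineage regulators, 1 rose and 0 fell in cortex at 2 h, 0 rose and 2 fell at 8 h, and 0 rose and 5 fell at 24 h. In striatum 1 rose and 1 fell at 2 h, 1 rose and 2 fell at 8 h, and 3 rose and 2 fell at 24 h. Zfp536, a zinc finger repressor, was detected on 3 of 4 sham cortex and 4 of 4 sham striatum arrays and on none at 8 or 24 h in either region (adjusted p = 0.000633 and 6.31e-05 in cortex, 0.00412 and 7.86e-05 in striatum). Sox5, a factor that delays differentiation, rose in striatum by 0.41 ± 0.10 at 2 h and 0.43 ± 0.10 at 24 h (adjusted p = 0.0131 and 0.00174), while its other tested probe differed by 0.06 and -0.04 (adjusted p = 0.875 and 0.884). Sox8, a relative of Sox10, fell in cortex at 24 h by 0.36 ± 0.13 (adjusted p = 0.0344). Sox2, a stem cell factor that precursors also express, fell in striatum at 8 h by 0.54 ± 0.12 (adjusted p = 0.00231), with -0.55 on its other probe (adjusted p = 0.107). That other Sox2 probe passed the filter on detection through sham striatum, where it was highest, and is no support for the fall.

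Of 17 measured markers of precursors other than the members, 1 rose and 0 fell in cortex at 2 h, 0 and 5 at 8 h, and 0 and 6 at 24 h. In striatum 0 rose at any time, and 0, 2 and 6 fell. The 2 of 17 at 8 h in striatum lie near the 12.1% of all tested probes that were called lower there. The median of the list was 0.06, -0.29 and -0.25 in cortex and -0.04, -0.19 and -0.19 in striatum. Cacng4, a subunit that modulates AMPA receptors, fell at 24 h by 0.74 ± 0.21 in cortex and 1.02 ± 0.21 in striatum (adjusted p = 0.00871 and 0.000619). Serpine2, a protease inhibitor, fell at 24 h by 0.49 ± 0.10 and 0.70 ± 0.10 (adjusted p = 0.000553 and 1.26e-05). The summed signal of these markers ran from 9506 to 9956 in sham cortex and 7675 to 9028 in cortex at 24 h, and from 9068 to 9566 in sham striatum and 6268 to 9341 at 24 h. C1ql1, Gng12, Pcdh15 and Vcan were not detected in any group.

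Of 11 measured markers of newly formed oligodendrocytes, at most 1 rose and 2 fell in any comparison with sham. Cd9, a membrane protein also found on many other cells, rose at 24 h by 1.21 ± 0.22 in cortex and 1.18 ± 0.22 in striatum (adjusted p = 0.000163 and 0.000221). Bmp4, a secreted factor that these cells express, fell in 5 of the 6 comparisons, by 0.68 ± 0.17 in cortex and 0.64 ± 0.17 in striatum at 24 h (adjusted p = 0.00343 and 0.00558).

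Of 23 measured markers of mature oligodendrocytes, 4 rose and 0 fell in cortex at 2 h, 5 and 0 at 8 h, and 6 and 5 at 24 h. In striatum 0 rose and 0 fell at 2 h, 1 and 6 at 8 h, and 2 and 5 at 24 h. Opalin, a membrane protein of myelin-forming cells, rose in cortex by 1.21 ± 0.28 at 2 h and 1.09 ± 0.28 at 24 h (adjusted p = 0.0142 and 0.00444). It also rose in striatum at 24 h, by 0.91 ± 0.28 (adjusted p = 0.0159). Ugt8a, which makes galactolipids of myelin, fell in striatum by 0.93 ± 0.15 at 8 h (adjusted p = 9.9e-05), as did Fa2h, which hydroxylates their fatty acids (by 0.99 ± 0.19, adjusted p = 0.000655). In cortex Ugt8a rose at 2 h by 0.51 ± 0.15 (adjusted p = 0.045). Apod, an apolipoprotein also made by other cells, rose at 24 h by 1.85 ± 0.13 in cortex and 1.33 ± 0.13 in striatum (adjusted p = 2.51e-10 and 8.44e-08). In sham mice 19 of the 23 were higher in striatum than in cortex and 0 lower, beside the higher Olig1 and Nkx2-2 there. Of all tested probes, 17.3% were higher and 15.9% lower in that comparison.

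**Figure D5:**
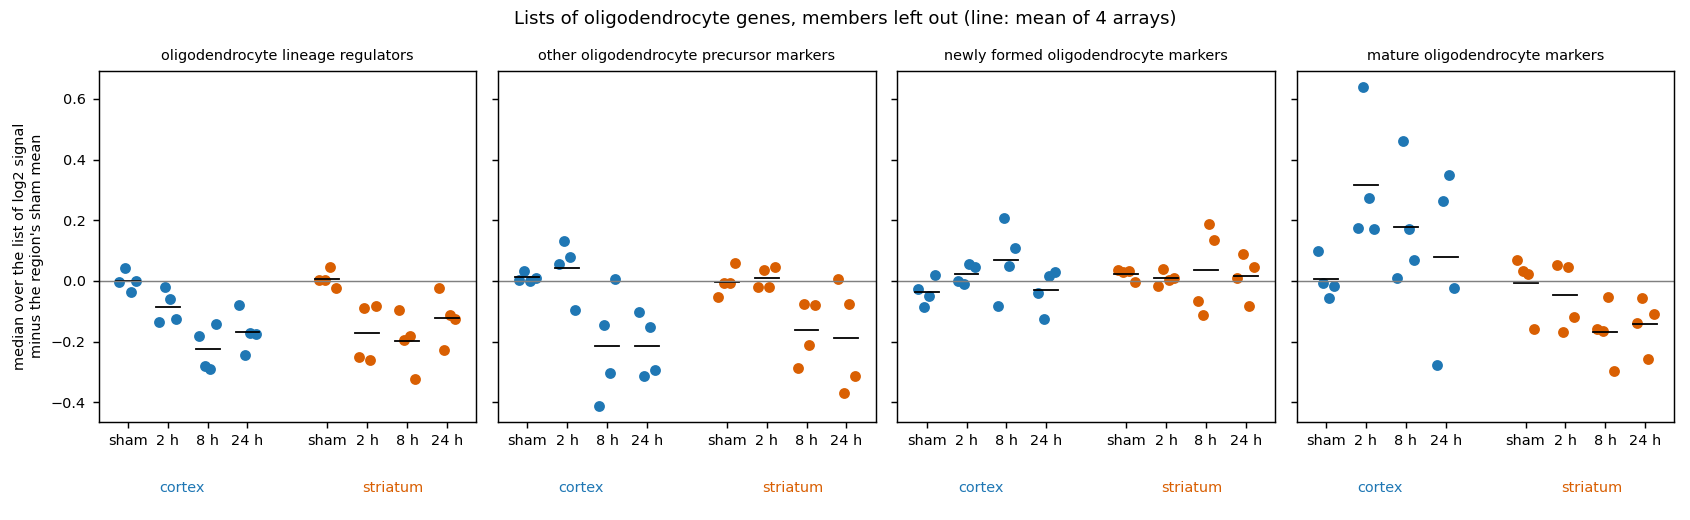
Median over each list of the log2 difference from the sham mean of the region (vertical axis), 1 point per array and a line at the mean of 4 arrays, for lineage regulators and for markers of precursors, newly formed and mature oligodendrocytes, without the members. The mean lines of the precursor markers lie below 0 at 8 and 24 h in both regions, and those of the mature markers lie above 0 in cortex.

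Around Hes5, 17 other Notch pathway genes were measured. In cortex 0 rose and 1 fell at 2 h, 3 and 4 at 8 h, and 5 and 8 at 24 h. In striatum 0 rose and 1 fell at 2 h, 1 and 3 at 8 h, and 3 and 6 at 24 h. Nrarp, a Notch target that limits the pathway, fell in striatum by 0.60 ± 0.16, 0.51 ± 0.16 and 0.67 ± 0.16 at 2, 8 and 24 h (adjusted p = 0.031, 0.025 and 0.00294), and in cortex by 0.66 ± 0.16 at 8 h (adjusted p = 0.00636). The brighter probe of Hey2, another Notch target, was detected on 3 of 4 sham cortex arrays and on none at 8 or 24 h (adjusted p = 0.000782 and 2.92e-05). The other Hey2 probe was detected on 1 of 4 arrays in sham, 1 at 8 h and 0 at 24 h (adjusted p = 0.074 and 0.0083). Both Hey2 probes passed the filter on detection through sham arrays, where they were highest, so these p-values are no support for a fall. Hey2 is nevertheless among the falls counted above, in cortex at 2, 8 and 24 h and in striatum at 8 and 24 h. In cortex at 2 h it was the only gene counted, so that count is no support either. Notch3, counted as falling in cortex at 8 and 24 h, was detected on 1 of 4 sham arrays and on none at those times. Notch4, a receptor of endothelial cells, rose at 24 h by 0.99 ± 0.12 in cortex and 1.03 ± 0.12 in striatum (adjusted p = 1.65e-06 and 9.95e-07).

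Hes5 is also made by astrocytes, so their markers are given beside it. Of 14 measured astrocyte markers, 0 rose and 1 fell in cortex at 2 h, 2 and 1 at 8 h, and 3 and 2 at 24 h, and in striatum 0 and 2, 1 and 3, and 1 and 5. Sox9, an astrocyte transcription factor, fell at 2 h by 0.78 ± 0.15 in cortex and 0.76 ± 0.15 in striatum (adjusted p = 0.00359 and 0.00488), the time at which Hes5 was already lower. Gfap, another astrocyte marker, rose at 24 h, when Hes5 was also lower, by 1.12 ± 0.27 in cortex and 1.11 ± 0.27 in striatum (adjusted p = 0.00278 and 0.00303). The summed signal of the astrocyte markers was 32303 to 35532 in sham cortex and 31327 to 37648 at 2 h. In striatum it was 37377 to 41793 in sham and 37047 to 38321 at 2 h, with S1pr1 and Slc4a4 not detected in any group. Their part in the change of Hes5 was not tested.

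Of 14 measured BMP pathway and Id genes, 0, 0 and 2 rose and 2, 2 and 4 fell in cortex, and 0, 1 and 3 rose and 2, 2 and 3 fell in striatum. BMP signals and Id genes act on the lineage against differentiation, but the list also holds antagonists of BMP such as Nog and Chrd. The counts therefore mix genes of opposite action. Chrd rose in striatum by 1.34 ± 0.27 at 8 h and 1.19 ± 0.27 at 24 h (adjusted p = 0.000856 and 0.00151). Nog was detected on 3 of 4 sham cortex arrays, on 1 at 2 h and on none at 8 or 24 h. It passed the filter on detection through sham cortex, where it was highest, so its falls are no support. They are among those counted in cortex at each time, beside Id3 at 2 h and Bmp4 at 8 h. Id3, an inhibitor of helix-loop-helix factors, fell at 2 h by 0.67 ± 0.17 in cortex and 0.68 ± 0.17 in striatum (adjusted p = 0.0244 and 0.018), and Id1 rose at 24 h by 1.00 ± 0.24 and 0.99 ± 0.24 (adjusted p = 0.00246 and 0.00276). Of 15 PDGF and FGF signalling genes beside Pdgfra, none rose, and 0, 2 and 2 fell in each region at 2, 8 and 24 h. Fgf1, a growth factor, fell in striatum at 24 h by 0.72 ± 0.14 (adjusted p = 0.000356), and Etv1, a factor downstream of FGF signals, fell in cortex at 8 h by 0.71 ± 0.23 (adjusted p = 0.0339), with -0.66 on its other probe (adjusted p = 0.0928). Only 3 hedgehog pathway genes, which act upstream of Nkx2-2 in development, were measured. Of these 0 were called in cortex, and 1 fell at each time in striatum. Ptch1, the hedgehog receptor, fell there at 2 and 8 h (by 0.57 ± 0.17 and 0.54 ± 0.17, adjusted p = 0.0493 and 0.0248). It was detected on 4 of 4 sham striatum arrays, on 1 at 2 h and on 2 at 8 h, so its falls rest in part on background. Shh, the ligand, fell in striatum at 24 h (by 0.58 ± 0.17, adjusted p = 0.0096).

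Of 11 measured cell cycle genes, 1, 1 and 4 rose and 0, 1 and 3 fell in cortex, and 0, 2 and 4 rose and 0, 2 and 0 fell in striatum. Cdkn1a, the inhibitor p21, rose in cortex by 2.00 ± 0.26 at 8 h (adjusted p = 4.58e-05), and Ccnd2, a cyclin of the first growth phase, fell in striatum by 0.79 ± 0.20 at 8 h (adjusted p = 0.00541).

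Markers of cells that share members with the lineage are given beside Pdgfra and Cspg4. Of 7 measured pericyte and smooth muscle markers, 0, 0 and 0 rose and 0, 1 and 2 fell in cortex, and 1, 0 and 0 rose and none fell in striatum. The falls in cortex were Notch3 at 8 h, and Notch3 and Vtn at 24 h. Notch3 was detected on 1 of 4 sham cortex arrays and on none at 8 or 24 h, so its falls rest on background. The summed signal of the 7 markers was 988 to 1118 in sham cortex and 902 to 1088 at 24 h. Abcc9, Anpep, Cnn1, Des, Myh11 and Tagln were not detected in any group. Of 12 fibroblast and meningeal markers, none rose and 0, 3 and 4 fell in cortex, and 0, 1 and 2 rose and 0, 1 and 0 fell in striatum. In cortex, where Pdgfra was lower at 24 h, Ogn, a matrix protein of meninges, fell at 24 h by 1.29 ± 0.32 (adjusted p = 0.00321). In striatum, where Pdgfra was lower at 24 h as well, Dcn, another matrix protein, rose by 0.95 ± 0.25 (adjusted p = 0.00488). The summed fibroblast signal was 7829 to 10328 in sham cortex and 7432 to 11014 at 24 h, and 7230 to 9786 in sham striatum and 10828 to 12568 at 24 h. Col1a2 and Col3a1 were not detected in any group. Col1a1 is among the falls counted in cortex at 8 and 24 h, and is the only one in striatum at 8 h. It was detected on 2 of 4 sham cortex and 1 of 4 sham striatum arrays and on none at those times, so its falls rest on background. The part of these cells in the change of Pdgfra was not tested.

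Other cell types moved with time as well. Of 10 neuron markers none rose and 0, 2 and 6 fell in cortex, and 0, 2 and 0 rose and 0, 2 and 4 fell in striatum. Of 11 microglia markers 0, 2 and 3 rose and 0, 6 and 5 fell in cortex, and 0, 0 and 4 rose and 0, 5 and 4 fell in striatum. Of 7 markers of infiltrating myeloid cells 0, 2 and 6 rose in cortex and 0, 1 and 7 in striatum, and none fell. Their summed signal was 900.5 to 1263 in sham cortex and 1183 to 8962 at 24 h, and 1168 to 1434 in sham striatum and 2758 to 7186 at 24 h. Of 9 endothelial markers 1, 3 and 7 rose and 0, 2 and 0 fell in cortex, and 1, 1 and 6 rose and 1, 2 and 0 fell in striatum. The part of a changed mix of cells in the changes of the members was not tested.

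Without the 2 arrays that stand apart, 13 of these list counts in cortex moved by over 1.5 times or from 0. At 24 h, 4 BMP and Id genes rose in place of 2, 4 PDGF and FGF genes fell in place of 2, 5 astrocyte markers rose in place of 3 and 1 fell in place of 2, and 3 mature oligodendrocyte markers fell in place of 5. At that time also 2 markers of newly formed oligodendrocytes rose in place of 1, 1 pericyte marker fell in place of 2, and 1 precursor marker and 1 neuron marker rose in place of 0. At 8 h, 2 BMP and Id genes and 1 PDGF and FGF gene rose in place of 0, and 2 cell cycle genes rose and 2 fell in place of 1 each. Of the precursor markers, 6 fell at 8 h in place of 5, and at 24 h 6 fell as before.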

How the data were processed

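Total RNA was labelled with biotin and hybridised to MouseRef-8 V2 bead arrays, 32 in all. Per the file headers, the authors exported the deposited probe profiles from BeadStudio 3.3.7 without normalization, and the deposited signal is a linear intensity per probe. The detection value deposited beside it is a fraction, 1 less the detection p. In the table of values processed by the authors, each deposited value is a ratio of an array's signal to the average of the 4 sham arrays of its region, with a normalization not given in the sources used here, and serves as an alternative. That table and the whole-series raw table carry the same arrays under mirrored replicate numbers (1 with 4, 2 with 3), and the numbers of the profiles were used. Columns of 0 samples were left unmapped.

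Background correction, quantile normalization and the log2 step used neqc (limma 3.58.1 under R 4.3.3) and an offset of 16. Tables were made in Python 3.11.15 with pandas 2.3.3 and numpy 2.4.6. An 8-group model (lmFit and eBayes) was fitted to all 12758 detected probes, with two-sided p-values adjusted (Benjamini-Hochberg) over these probes, with 0.05 as the threshold in 14 comparisons. Errors after ± are SE for changes and SD for means. Where a probe was not well above background on any array of a group, the fold is a lower bound: each array was raised to at least the lowest signal among its detected probes (5.57 to 5.97). With 4 arrays per group, their number limits the precision.

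The members and the 16 gene lists were chosen with earlier results of these data known, and the list of hypothalamic neuropeptides after seeing values. Every member probe is reported. From each list the rule took up to 4 measured genes per comparison with sham, those with the largest absolute change among genes that passed, each by its brightest detected probe, and the text names some of these. Gene names and positions came from RefSeq (GRCm38.p6).

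Same-numbered arrays of a region share a slide. Their deviations from group means had a median correlation of 0.11 (26 of 48 pairs over 0.1), against -0.04 for different numbers, and same-numbered arrays of the 2 regions had 0.18 (11 of 16 pairs). The slide was therefore kept as an alternative block. On simulated data with 12758 probes, the fit recovered 92 of 100 probes changed by log2 1 and 42 of 100 changed by 0.5, with 6 false calls, for cortex at 8 h against sham. Alternatives were another scaling, no background correction, 2 other filters, 1 probe per gene, each region alone, a robust spread, array weights, slide and replicate blocks, the authors' values, leaving out each array, and, chosen after seeing the data, leaving out the 2 arrays that stand apart.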

Additional observations from a re-analysis of the deposited data

Results flagged for a closer look

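Of 64 groups of 4 arrays tested across the 8 probes (Dixon's criterion at the 95% level), 2 held an array far from the others, and chance flags about 1 in 20 groups. The Gpr17 signal of cortex sham replicate 3 was 8.41, against 8.56 to 8.57 on the other sham arrays. The Cspg4 signal of cortex 24 h replicate 2 was 5.32, against 5.72 to 5.79, and none of these Cspg4 values was detected. No member differed between the regions in its response to reperfusion at an adjusted p under 0.05.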

How the results depend on the processing

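Over the single probes and comparisons, 2115 values under alternatives kept their side of the threshold, 71 lost and 20 gained a call. Of the 2115, 2002 kept their direction and 113 that were never called took the other, and no called value turned its direction. Of the 8 tested probes, Nkx2-2 probe 2 included, the number called in either direction moved by over 1.5 times as follows, with the share of all probes called beside it. At 2 h in cortex (main count 3, 4.29% of all) it was 6 with array weights (16.8%), 5 lower and Olig1 higher, and 5 with the authors' values (19.5%), and at 24 h (5, 30.9%) it was 3 without the filter on detection (14%). At 2 h in striatum (4, 5.68%) it was 2 without that filter (2%) and 2 with 1 probe per gene (6.3%), and at 8 h (3, 23.1%) it was 5 with the authors' values (33.1%). From 8 to 24 h in striatum (0, 7.12%) it was 1 with each region alone (6.65%). Leaving out 1 array gave 1 to 3, 3 to 5 and 3 to 5 in cortex at 2, 8 and 24 h, 2 to 4, 2 to 4 and 2 to 6 in striatum, and 3 to 4 between sham regions. The lowest of these at 24 h in striatum, 2, came without 24 h replicate 2. With the slide as a replicate block, calls were lost for Gpr17 in cortex at 8 h (adjusted p = 0.0508) and Pdgfra in cortex at 24 h (0.0575), and gained for Cspg4 in cortex at 24 h (0.0429). With a replicate block across regions Cspg4 was lower in sham striatum (0.0487). Other calls of the members did not move under a block.

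The authors' values placed the median of all probes lower, by -0.18 to -0.08 on the log2 scale against sham, and moved the split of all calls toward lower, from 262 higher and 285 lower to 198 and 2292 in cortex at 2 h, and to 888 and 4716 in striatum at 24 h from 1690 and 2082. The count of all calls in cortex at 2 h ran from 273 (each region alone) to 2490 (the authors' values), against 547, and in striatum at 2 h from 514 (no filter on detection) to 2974 (array weights), against 725. Leaving out 1 array gave 193 to 549 and 238 to 1216 for these. The causes were not tested. Signal near background limits Olig2, Cspg4, Nkx2-2 probe 2 and, in cortex, Nkx2-2 probe 1.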
